A study of Homo sapiens with 6 samples.

Results

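The genes described here are 44 human genes of the innate response to RNA: RNA sensors, the transcription factors of interferon signalling, interferon-stimulated antiviral genes, and genes of MHC class I antigen presentation. They were listed by name, by a rule that uses no measured value but with earlier results of these data known, to ask whether cells given a SOX9 siRNA and cells given a control siRNA differed in this response. Of the 44, 43 had a row among the 19830 genes of the authors' comparison and 36 were tested there, of 14063 genes tested in all. IFI44L was not analysed here. TLR3, IFI27, IFI44, RSAD2, HERC6, HLA-E and TAP1 had a row but too few reads for an adjusted p-value.

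Double-stranded RNA in the cytosol is bound by RIG-I, encoded by DDX58, and by MDA5, encoded by IFIH1, which signal through the mitochondrial protein MAVS and the kinase-activated factors IRF3 and IRF7 to switch on interferon genes. Secreted interferon acts on receptors coupled to JAK kinases, and the complex that contains STAT2 and IRF9 then binds the interferon-stimulated response element (ISRE) in the promoters of many antiviral genes. A short interfering RNA is itself a duplex, and the same genes are commonly read to see whether a transfected siRNA has set off this response. Class I molecules, which show peptides from inside the cell to T cells, are among the genes that interferon raises.

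RNA came from PANC-1, a cell line of human pancreatic ductal adenocarcinoma that in culture has no immune or stromal cells around it. Cells were transfected by Lipofectamine 3000 with SOX9 siRNA or with control siRNA, both at 25 nM, and harvested after 48 hours. Each siRNA had 2 libraries, made from cells that were pooled at harvest. Both groups were transfected and no untransfected RNA library was analysed here, so the comparison can show a difference between the siRNAs and not a response that both raised alike. In bulk RNA, fewer responding cells and less RNA per cell cannot be told apart.

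The values are those of the authors' deposited table: for each gene a mean normalized count over the 4 libraries, a log2 fold change, its standard error and DESeq2 p-values. Values of single libraries were not analysed here, so no member can be given library by library, and its standard error and interval stand in for the spread. The headers do not name the numerator, and fold changes are read as SOX9 siRNA over control siRNA because SOX9, the target, was lower: the authors' deposited table puts it at 55.9% of control (39.2% to 79.8% as 95% interval, DESeq2 adjusted p = 0.0643). The mean normalized counts summed to 47653185. All 7 fixed epithelial markers were tested, with mean normalized counts in the authors' deposited table from 354 for KRT7 to 203350 for KRT8. Of these 7, which include SOX9 itself, 1 (14.3%) was called, beside 1.81% of all genes tested. The gene called was EPCAM, an adhesion molecule of epithelia, which was lower. Its log2 fold change was -1.76 in the authors' deposited table, with a DESeq2 adjusted p = 1.85e-05. By an unadjusted p under 0.05, 5 of the 7 (71.4%) passed, beside 11.1% of all genes tested. Of these 5, 3 were higher and 2 lower, and the 2 lower were EPCAM and SOX9, the siRNA target. Of 13 leukocyte markers 4 were tested, and the defining marker PTPRC had a mean normalized count of 2.28 in the authors' deposited table, where the 5 untested ones with a row ranged from 1.03 to 7.79. Of the 4 tested leukocyte markers 1 (25.0%) was called, beside 1.81% of all genes tested. It was CD68, a lysosome membrane protein also made outside the immune system, and was higher (1.79-fold in the authors' deposited table). All 4 tested ones had log2 fold changes above 0 there, among them 1.21 for CD14 and 0.91 for ITGAM. Of 5 endothelial markers 1 was tested, ENG, with a mean normalized count of 460 in the authors' deposited table. Of 5 fibroblast and stellate markers 3 were tested, the most counted being COL3A1 at 322 in the authors' deposited table. In both of these lists 0 were called. The part of all these markers in the results was not tested.

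The ISRE is shown first, because it is the sequence that most of these genes share. It was searched on either strand as GAAA, any 2 bases and GAAA again (TTTC, 2 bases and TTTC where it lies on the other strand) in RefSeq promoter windows of build GRCh38.p14, 250 bases before to 50 after each gene's start. A window was found for 33 of the 43 genes with a row, and 22 of the 33 (66.7%) held a match, beside 4.38% of all 27305 genes with a window. The interferon-gamma element GAS, searched as TTCNNNGAA, was in 10 of the 33 (30.3%) beside 9.38% of all. Below are 6 stretches upstream of the start from tested genes at both ends of the range of fold changes, read in the gene's direction, with each ISRE match in capitals; overlapping matches run together.
IFIT1: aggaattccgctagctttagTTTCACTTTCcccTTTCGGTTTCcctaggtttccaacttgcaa
HERC5: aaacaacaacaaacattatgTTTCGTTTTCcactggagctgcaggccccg
ISG15: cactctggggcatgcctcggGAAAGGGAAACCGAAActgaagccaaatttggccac
OAS3: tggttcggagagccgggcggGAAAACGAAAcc
BST2: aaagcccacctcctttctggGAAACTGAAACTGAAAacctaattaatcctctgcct
IFITM1: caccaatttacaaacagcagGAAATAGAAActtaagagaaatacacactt
In GRCh38.p14 these lie at chr10:89392487-89392549 (plus strand) for IFIT1, chr4:88457025-88457074 (plus) for HERC5, chr1:1013364-1013419 (plus) for ISG15, chr12:112938442-112938473 (plus) for OAS3, chr19:17405725-17405780 (minus) for BST2 and chr11:313980-314029 (plus) for IFITM1. The first 2 genes had negative log2 fold changes, -0.36 for IFIT1 and -0.45 for HERC5 in the authors' deposited table, and the other 4 had positive ones, from 0.28 for OAS3 to 0.65 for IFITM1. A match describes these letters and is no evidence that a factor was bound.

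No gene of the set passed the test. Of the 36 tested members 0 passed at a DESeq2 adjusted p under 0.05, by the authors' deposited table, beside 1.81% of all genes tested (0.868% higher and 0.939% lower), and the smallest adjusted p was 0.264. At an unadjusted p under 0.05 there was 1 member, DHX58, which is 2.78% of the 36 beside 11.1% of all genes tested. No tested member had an estimated change beyond 2-fold in either direction, with log2 fold changes from -0.45 to 0.65. The median log2 fold change was 0.10, beside -0.02 over all genes tested, and 27 of the 36 (75.0%) were above 0, beside 47.9%. These shares describe the set and were not tested, since members share regulators and are not independent.

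The intervals say how large a difference these libraries could have held. For 27 of the 36 members (75.0%) the 95% interval lay within 2-fold in both directions, beside 74.8% of all genes tested. A 2-fold rise lay outside the interval for 28. The 9 members whose interval reached past 2-fold on one side or both were DHX58, IFITM1, IFITM2, HERC5, OAS1, OAS2, OASL, ISG20 and BST2. A call needed a change of at least 3.32 standard errors, the size at the largest p that was called, which for the median standard error of 0.24 is a 1.74-fold change. Across the members that limit on the estimate ran from 1.44-fold for HLA-C to 8.46-fold for IFITM1. A member whose estimate fell short of its limit was not called, whether or not a true difference was present.

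**Figure D1:**
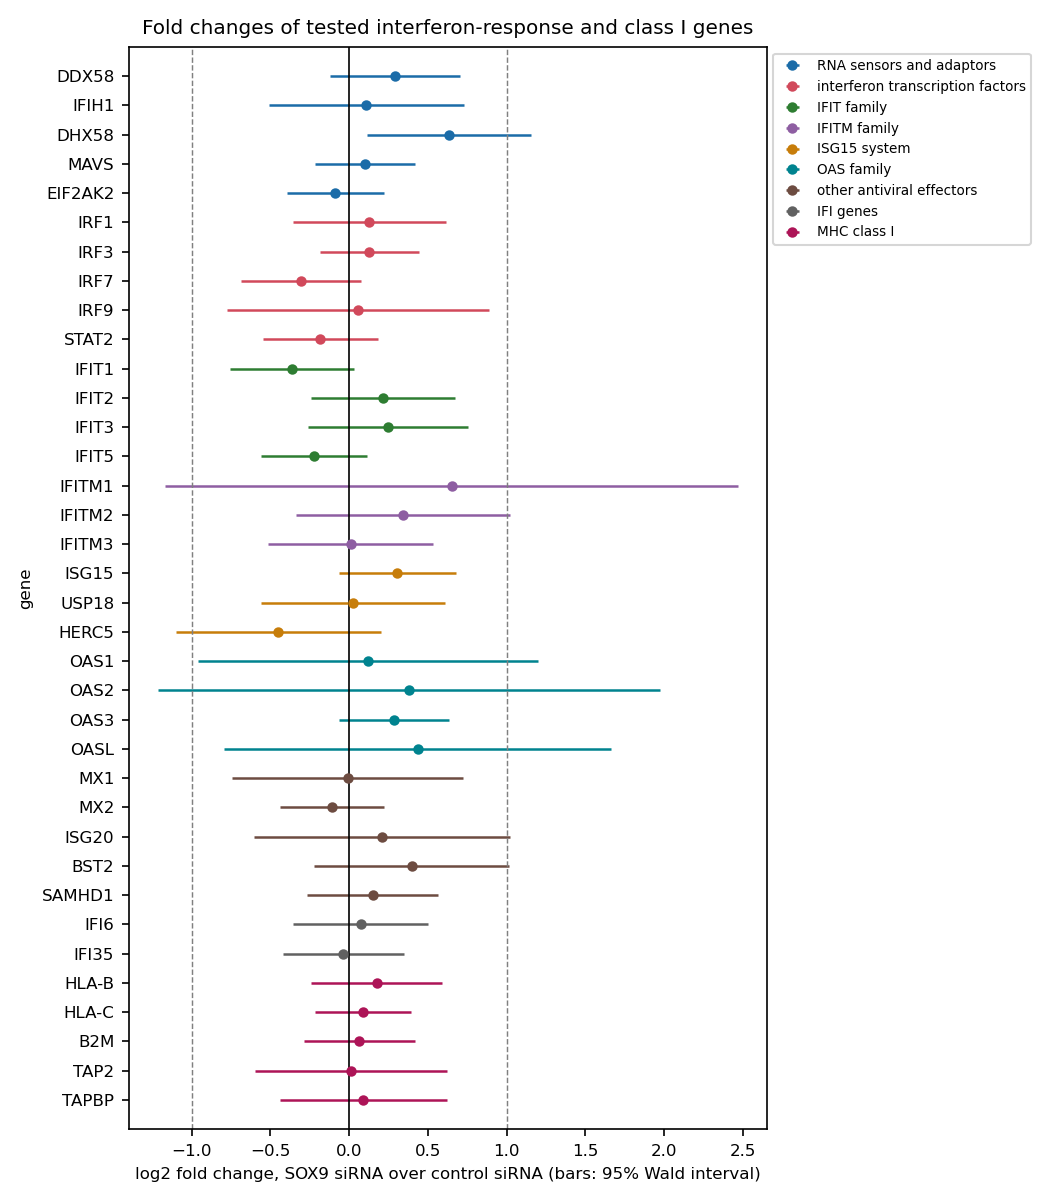
Log2 fold change of each of the 36 tested genes (point) with its 95% Wald interval (bar), SOX9 siRNA over control siRNA, coloured by role; dashed lines mark 2-fold. Only the interval of DHX58 does not reach 0, and those of IFITM1, OAS2 and OASL are the widest.

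Among the RNA sensors, DHX58 had the lowest p. DHX58 encodes LGP2, the third RIG-I-like receptor, which lacks the signalling domain and tunes the other two. In the authors' deposited table its mean normalized count was 245 and its estimate 1.55-fold, with a 95% interval from 1.08 to 2.22, an unadjusted p of 0.0167 and a DESeq2 adjusted p of 0.264. Ordered by p it stood at place 888 of the 14063 tested genes, so the call was not made. DDX58, now named RIGI, stood at 1.22-fold in the authors' deposited table (0.919 to 1.63, adjusted p = 0.684), and IFIH1 at 1.08-fold (0.701 to 1.66). MAVS, the adaptor of both and the sensor-group member with the highest count, at 5061, stood at 1.07-fold (0.859 to 1.34) in the authors' deposited table. EIF2AK2, the kinase PKR that halts translation on double-stranded RNA, had the lowest value of the group at 94.1% of control (75.9% to 116.6%) in the authors' deposited table. TLR3, the endosomal sensor of double-stranded RNA, had a mean normalized count of 7.16 in the authors' deposited table and was not tested.

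The transcription factors had estimates on both sides of control. IRF7, the factor that interferon itself raises, stood at 80.9% of control in the authors' deposited table (62.2% to 105.3% as 95% interval, DESeq2 adjusted p = 0.608), and STAT2 at 88.1% (68.3% to 113.7%). IRF3, which is present before infection and is activated by phosphorylation, and IRF1, a short-lived activator of class I genes, both stood at 1.09-fold in the authors' deposited table. IRF9, the DNA-binding subunit of the complex with STAT2, stood at 1.04-fold, with a wide interval from 0.584 to 1.85 in the authors' deposited table. All 5 intervals of this group lay within 2-fold in both directions.

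The IFIT genes, a family of interferon-stimulated antiviral genes, were split. IFIT1 had the second-smallest p of all members and stood at 77.7% of control in the authors' deposited table, with a 95% interval from 59.2% to 102.0% and a DESeq2 adjusted p of 0.511. IFIT5 stood at 85.6% of control, while IFIT2 and IFIT3 stood at 1.16-fold and 1.19-fold in the authors' deposited table. These 4 genes are neighbours on chromosome 10 and all were well counted, with mean normalized counts in the authors' deposited table from 584 for IFIT3 to 2954 for IFIT1. Their intervals all lay within 2-fold in both directions.

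The IFITM proteins sit in membranes and hinder the fusion of enveloped viruses. IFITM1 had the highest estimate of the tested members and the least certain one: 1.57-fold in the authors' deposited table, with a 95% interval from 0.445 to 5.54 and a DESeq2 adjusted p of 0.904. Its standard error was 0.93 at a mean normalized count of 1984 in the authors' deposited table, larger than in 99.9% of the 4818 tested genes within 2-fold of that count, whose median was 0.19. IFITM2 stood at 1.27-fold (0.791 to 2.03) and IFITM3, with the highest count of the 3 at 7481, at 1.01-fold (0.701 to 1.45) in the authors' deposited table. The standard errors of IFITM2 and IFITM3 were also larger than in 97.5% and 96.6% of tested genes of like count. The 3 genes are close copies on chromosome 11, so reads may have been shared among them, which was not tested.

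Standard errors in this table come from the spread between libraries of 1 group, moderated across genes, and from the count. In all, 7 of the 36 members (19.4%) had a larger standard error than 90% of tested genes of like count: the IFITM genes, IRF9, OASL, OAS2 and IFIH1. These genes were singled out after their values were seen, and about 10% of any genes would be expected past that mark. In the plot of standard error by count, IFITM1 lies in a sparse band of genes well above the main cloud, and no other member does. DESeq2 by design leaves unmoderated the spread of a gene that lies far above the trend, and whether that was done for IFITM1 was not tested.

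**Figure D2:**
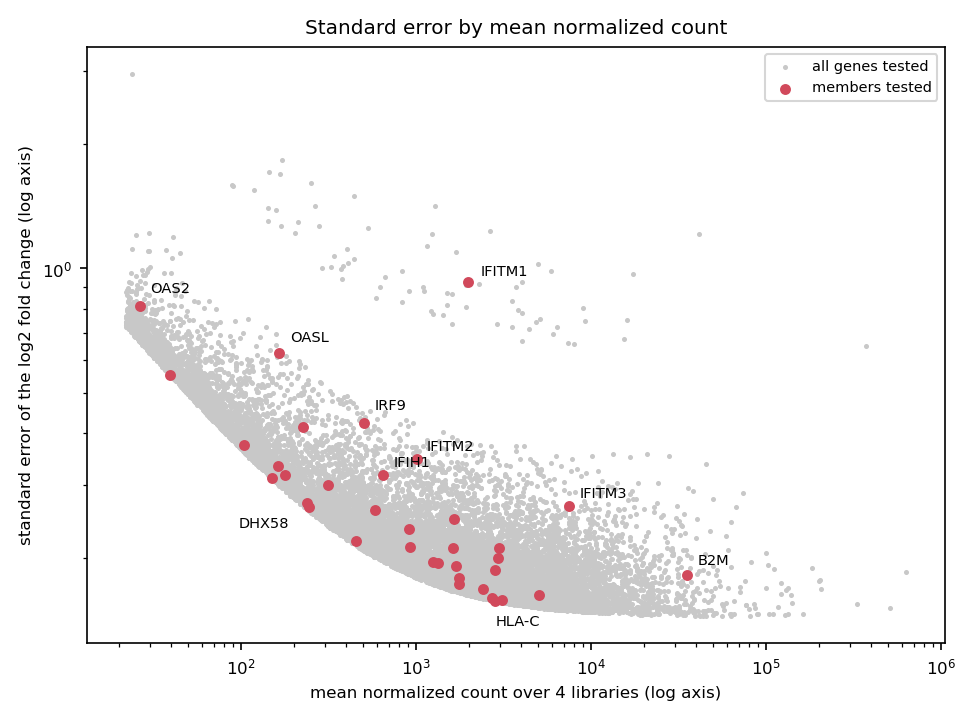
Standard error of the log2 fold change against mean normalized count, both on log axes, for all 14063 tested genes (grey) and the 36 members (red). IFITM1, with a standard error of 0.93 at a count of 1984, stands apart from the other members.

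ISG15 is a ubiquitin-like protein that is joined to other proteins, HERC5 is its ligase and USP18 removes it. ISG15 stood at 1.24-fold in the authors' deposited table, with a 95% interval from 0.954 to 1.60 and a DESeq2 adjusted p of 0.593. HERC5 had the lowest estimate of the tested members, 73.3% of control with an interval from 46.6% to 115.2% in the authors' deposited table. USP18 stood at 1.02-fold (0.677 to 1.53) in the authors' deposited table. The ligase and the modifier thus had estimates on opposite sides of control, and both intervals held no change. HERC6, with a mean normalized count of 11.9 in the authors' deposited table, had the most reads of the members that were not tested.

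The OAS enzymes make 2-5A, the signal that activates RNase L, and OASL is a relative that aids RIG-I. All 4 estimates lay above control, at 1.09-fold for OAS1, 1.30-fold for OAS2, 1.22-fold for OAS3 and 1.35-fold for OASL in the authors' deposited table. OAS3, the most counted at 1754, had the narrowest interval, from 0.954 to 1.55, with a DESeq2 adjusted p = 0.604 in the authors' deposited table. OAS2 and OAS1 were the tested members with the fewest reads, with mean normalized counts of 26.4 and 39.4 in the authors' deposited table, above the authors' limit of 21.9. Their intervals and that of OASL reached past 2-fold, so 3 of the 4 estimates were imprecise.

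Of the other antiviral effectors, MX1 and MX2, GTPases that trap viral nucleocapsids, stood at 99.3% and 92.8% of control, per the authors' deposited table. BST2, the tether that holds budding virus at the surface, had the highest estimate of the group at 1.32-fold (95% interval 0.855 to 2.03, DESeq2 adjusted p = 0.740) in the authors' deposited table. SAMHD1, which breaks down nucleotides needed for reverse transcription, stood at 1.11-fold and the exonuclease ISG20 at 1.16-fold in the authors' deposited table. RSAD2, the radical enzyme viperin, had a mean normalized count of 3.91 in the authors' deposited table and was not tested. IFI6 and IFI35 stood at 1.05-fold and 97.5% of control, while IFI27 and IFI44 were not tested, at mean normalized counts of 7.45 and 9.87 in the authors' deposited table. RSAD2, IFI27 and IFI44 are among the genes that interferon raises most in many cell types, and the mean of each over both siRNAs was under 10. Of the 36 tested members 19 had means over both siRNAs of at least 1000, among them IFIT1 at 2954, MX2 at 2397 and ISG15 at 1682 in the authors' deposited table. MX1 had a mean of 103 there, and 2 tested members had means under 100. A response that both siRNAs raised alike was not tested.

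The class I genes that could be tested lay close to control. B2M, the light chain of every class I molecule and the member with the most reads, at 35526, stood at 1.05-fold in the authors' deposited table, with a 95% interval from 0.818 to 1.34 and a DESeq2 adjusted p of 0.967. The heavy chains HLA-B and HLA-C stood at 1.13-fold (0.847 to 1.51) and 1.06-fold (0.859 to 1.32) in the authors' deposited table. TAP2, a subunit of the peptide transporter, stood at 1.01-fold (0.660 to 1.54) and TAPBP, the tapasin that bridges transporter and class I molecule, at 1.06-fold (0.736 to 1.54) in the authors' deposited table. All 5 intervals lay within 2-fold in both directions. Class I heavy chains vary between people and resemble each other, so their counts depend on how well a line's alleles match the reference.

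Counts of the members inside the MHC itself are given as listed and are not read here as expression levels. HLA-E, a class I heavy chain of most nucleated cells, had a mean normalized count of 9.83 and TAP1, the partner of TAP2, one of 1.73 in the authors' deposited table. The low counts were shared by their neighbours. Of 140 protein-coding RefSeq genes in order from HLA-F to TAPBP on chromosome 6, 31 (22.1%) were tested, against 63.5% of the 909 other protein-coding genes of the chromosome and 64.3% of the 140 that follow TAPBP. A row was found for 78 of the 140, with a median mean normalized count of 7.56, against 1040 for the rows elsewhere on the chromosome. Genes that most cells use were among them, named after their values were seen: in the authors' deposited table the translation factor ABCF1 had a mean normalized count of 3.86, the raft protein FLOT1 3.19 and the phosphatase inhibitor PPP1R11 0.475. HLA-B, HLA-C, TAP2 and TAPBP lie in the same stretch, and B2M does not. How the reads of this stretch were assigned was not tested. Over the 32 tested members outside it, 0 were called and the median log2 fold change was 0.11.

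**Figure D3:**
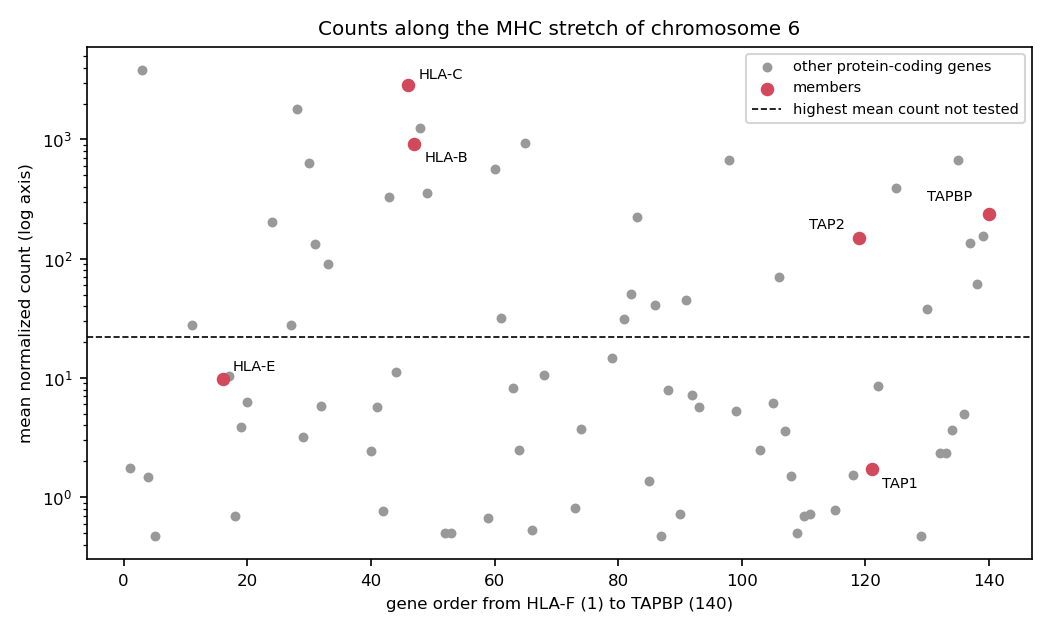
Mean normalized count (log axis) of the 78 genes with a row, in gene order from HLA-F to TAPBP, members in red; the dashed line is the highest mean count that was not tested, 21.9. HLA-E and TAP1 lie below the line among many of their neighbours, and HLA-B, HLA-C, TAP2 and TAPBP lie above it.

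Members with and without an ISRE match had overlapping fold changes. The 17 tested members with a match had a median log2 fold change of 0.07, with 12 above 0 and 5 below, and the 10 with a window but no match had a median of 0.11, with 8 above 0. Over all 409 tested genes with a match in a promoter window, 5 were called (1.22%), 1 higher and 4 lower, beside 1.97% of the 10457 tested genes whose windows held none. The medians of these groups were -0.01 and -0.02. These are descriptions of nearby letters and were not tested.

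Further genes of the pathway were taken from 5 lists. Of 50 other interferon-stimulated genes 42 were tested and 0 were called, with a median log2 fold change of 0.15 and 29 above 0. At an unadjusted p under 0.05 there were 5 higher and 1 lower among the 42, beside 4.98% higher and 6.15% lower of all genes tested. GBP2, a guanylate-binding protein of cell-autonomous defence, had the smallest p, at 2.63-fold (95% interval 1.30 to 5.30, DESeq2 adjusted p = 0.166) on a mean normalized count of 58.2 in the authors' deposited table. RNF213, a large ubiquitin ligase and the most counted of the list at 32752, stood at 1.33-fold (1.07 to 1.65, adjusted p = 0.209) in the authors' deposited table.

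Of 25 listed interferon ligands, receptors, kinases and feedback genes 17 were tested, with 0 called and a median log2 fold change of -0.03. None of the 17 was a ligand. The 5 genes with a row but no test were IFNA1, IFNE, IFNL1, IFNL2 and IFNL3. Their mean normalized counts ran from 0.551 for IFNA1 to 10.3 for IFNE in the authors' deposited table. IFNB1, IFNK and IFNG were not analysed here. In this list 5 (29.4%) had an unadjusted p under 0.05, 4 of them lower, beside 11.1% of all genes tested and 6.15% lower. JAK1, the kinase bound to every type of interferon receptor and the most counted of the list at 12227, stood at 61.9% of control in the authors' deposited table, with a 95% interval from 45.9% to 83.6% and a DESeq2 adjusted p of 0.0771. IFNGR1, the ligand-binding chain of the interferon-gamma receptor, stood at 62.8% (45.2% to 87.3%, adjusted p = 0.150) in the authors' deposited table. The estimates of JAK1 and IFNGR1 were thus lower than those of every tested member, a difference that was not tested.

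**Figure D4:**
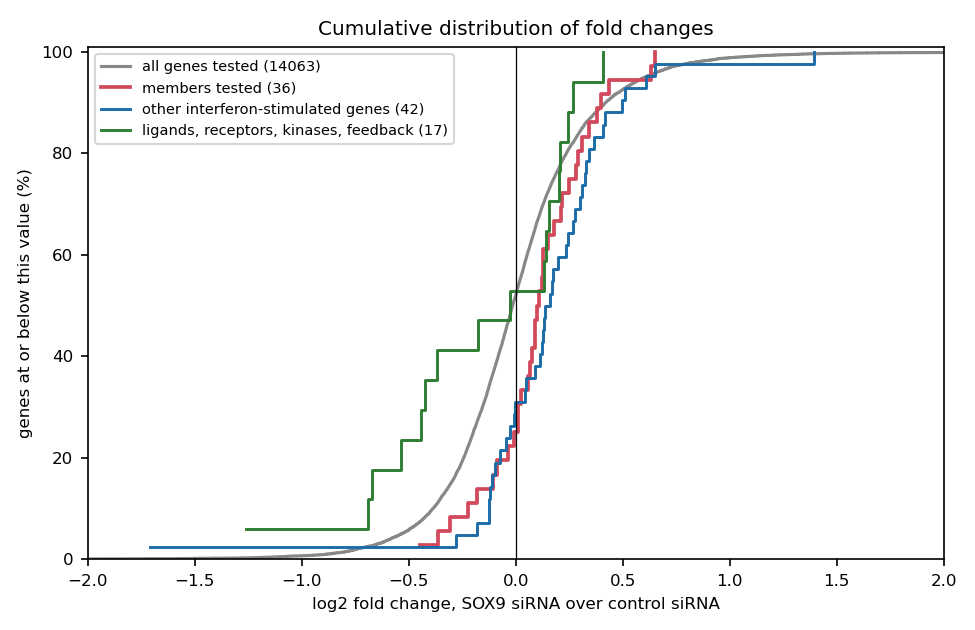
Percent of genes at or below each log2 fold change, for all 14063 tested genes, the 36 members and 42 other interferon-stimulated genes. The last curve is 17 receptor, kinase and feedback genes, from the list that also held ligands, none of which was tested. The axis is cut at 2 in each direction. The member curve crosses its middle at 0.10 and stays between -0.45 and 0.65, and the receptor curve has a longer lower arm.

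Among 31 tested genes of other nucleic acid sensing, with a median log2 fold change of 0.02, 1 (3.23%) was called, beside 1.81% of all genes tested. SKIV2L, a helicase of the cytosolic exosome, now SKIC2, fell, by the authors' deposited table, to 7.59% of its control level, with a 95% interval from 1.73% to 33.3% and a DESeq2 adjusted p of 0.0411. Its mean normalized count was 44.6 in the authors' deposited table, and it lies in the MHC stretch whose counts were low, so the call rests on few reads. The call was lost with p-values adjusted over every gene, and the gene drops out at a mean count of at least 50. IRAK1, a kinase of Toll-like receptor signalling and the most counted of this list at 33522, stood at 95.4% of control in the authors' deposited table.

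Of 21 other class I processing genes 16 were tested, with 0 called and a median log2 fold change of 0.06. CANX, the chaperone calnexin that holds new heavy chains and also the most counted at 49869, stood at 1.72-fold (95% interval 1.18 to 2.51, DESeq2 adjusted p = 0.139) in the authors' deposited table. RFX5, which binds the promoters of MHC genes, stood at 1.36-fold (1.07 to 1.72, adjusted p = 0.230) in the authors' deposited table. Of 13 MHC class II genes 1 was tested, the invariant chain CD74, which lies outside the MHC and stood at 79.8% of control (41.5% to 153%) in the authors' deposited table.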

How the data were processed

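RNA libraries of PANC-1 cells (2 with SOX9 siRNA, 2 with control siRNA) were analysed; the 2 samples of SOX9 ChIP-seq were not used here. For the RNA, HISAT2 2.0.5, featureCounts and DESeq2 1.18.1 appear in the submitters' processing notes, which list hg19 and mm10 with no role; settings, strand and the treatment of multiply mapped reads are not given in the sources used here. Per the labels' protocols, libraries were sequenced as pairs of 100 bases. Per the file headers, the authors deposited a mean normalized count per gene (a signal scaled by size factors), a log2 fold change with its standard error, a Wald score, a p-value and an adjusted p-value. Redoing the Benjamini-Hochberg step returned the deposited adjusted values (largest difference 9.4e-15). Nothing in the labels says that a group's libraries came from separate cultures, so p-values cover only how these libraries vary, which may be technical variation.

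Computed here, with Python 3.11.15, pandas 2.3.3 and scipy 1.17.1, were Wald intervals (1.96 standard errors each way), folds, counts of genes called at an adjusted p under 0.05, standard errors of tested genes within 2-fold of a member's mean count, gene order in RefSeq (GRCh38.p14, names and order only) and motif matches in RefSeq promoter windows. All 44 member symbols matched RefSeq. Steps were tested on simulated data. The members and lists were chosen with earlier results of these data known. Values are given for members with a p under 0.05 and, in each role group, for the most counted member and those with the highest and lowest estimate; from each further list, for called genes, or the 2 with the smallest p, and the most counted. Alternatives were other count minimums, adjustment over every gene, other thresholds, centring, and leaving out members that may share reads; leaving out the MHC stretch was added after seeing the data.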

Additional observations from a re-analysis of the deposited data

How the results depend on the processing

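The count of 0 members called held at mean counts of at least 10, 50 and 100, with adjustment over every gene, at adjusted p under 0.1 and under 0.01, after centring and without the MHC stretch. It became 1 (DHX58) at an unadjusted p under 0.05. The smallest adjusted p of a member ranged from 0.234 at a mean count of at least 100 to 0.369 with adjustment over every gene. The members' median log2 fold change stayed between 0.09 and 0.12. All genes called numbered 254, and 109 at an adjusted p under 0.01 or 1565 at an unadjusted p under 0.05. In the further lists 1 gene was called. That count became 0 at mean counts of at least 50 and of at least 100, with adjustment over every gene, at an adjusted p under 0.01 and without the MHC stretch. It was 2 at an adjusted p under 0.1, where JAK1 joined SKIV2L, and 18 at an unadjusted p under 0.05. By list these 18 were 29.4% of 17 receptor, kinase and feedback genes tested and 12.9% of 31 sensing genes. They were 14.3% of 42 other interferon-stimulated genes, 18.8% of 16 class I processing genes and 0 of 1 class II gene. The share over all genes tested was 11.1%. Raising the count minimum or leaving out the stretch removes SKIV2L from the genes tested. Leaving out a library, other normalizations and a count test were not run, since the values used are the authors' comparison. No paired analysis was possible because the values used are 1 comparison per gene with no values per library; the labels number replicates 1 and 2 in both groups. Depth limits most the 7 members with a row that were not tested, at mean counts from 1.73 to 11.9, and then OAS2 and OAS1, the tested members with counts under 100.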

Other observations

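The MHC stretch from HLA-F to TAPBP held other low-count genes with wide estimates on the same scale as SKIV2L. EHMT2, a histone methyltransferase that lies near SKIV2L, had a mean normalized count of 40.9 and a log2 fold change of -3.60 with a standard error of 1.19 in the authors' deposited table. DXO, a decapping exonuclease next to SKIV2L, had a mean normalized count of 7.16 and, in the authors' deposited table, a log2 fold change of -2.13 and was not tested. These genes were chosen after their values were seen, and the median standard error was 0.31 over the 31 tested genes of the stretch, beside 0.20 on the rest of chromosome 6.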
